A study of Mus musculus with 4 samples.

Results

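The genes described here encode proteins of the centrosome and the centriole: every symbol of the deposited table that begins with Cep or Cetn followed by a digit, together with Plk4, Sass6, Stil, Deup1, Cntrob and Cntln. These were 47 of the 25124 listed genes, and 1 of them, Cep83os, is noncoding. A gene was tested when its mean over the 4 libraries reached a floor of 25.8 normalised reads, equal to 1 CPM at the mean library total, which kept 43 of the 47 and 13810 genes in all. In each of the 43 both group means reached the floor. RNA sequencing was done on airway epithelial cells sorted by flow cytometry from the lungs of wild-type C57BL/6 mice. All mice were sensitised with house dust mite (HDM), and 2 libraries came from mice given an SCD1 inhibitor, which blocks the desaturase that puts a double bond into saturated fatty acids, and 2 from mice given DMSO. The labels used here name neither the inhibitor nor a dose, age, sex or time, and do not say whether libraries of a group came from separate mice, so p-values measure the spread between these samples, which may be technical. Unsensitised mice were not analysed here.

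A centriole is a short cylinder of microtubules that is assembled on a cartwheel, and it can dock at the cell surface as the basal body of a cilium. Most cells duplicate their centrioles once per cell cycle under the kinase PLK4. Ciliated airway cells no longer divide and instead make many centrioles together, partly on deuterosomes, structures built by DEUP1. Distal appendages fix the centriole to the membrane, and the transition zone above it controls which proteins enter the cilium.

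Of the 43 tested genes, 4 rose with the inhibitor by limma and none fell, with 0 lower at an unadjusted p under 0.05 as well. Cep290, Cntln, Cep83 and Cep126 were 1.84 to 4.07 times higher in group means, with limma's adjusted p from 0.000365 to 0.0122 over all tested genes. The background of such calls was 1.36% of the tested genes higher (188) and 0.427% lower (59), against 9.3% of the tested centrosome genes higher. The genes that start centriole duplication (Plk4, Stil, Sass6), the deuterosome gene Deup1 and the centrins did not pass the test. The values that chose the genes were their names and mean level alone, but the set was proposed with results of these libraries in view.

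The start regions of Cep290 and Cep83 are shown because these genes had the highest and the third highest log2 fold change in the set, and because the first exon of Cep83 lies next to a noncoding gene that carries its name. Coordinates and sequence are those of mouse GRCm38.p6 (mm10), with CpG sites in capitals. The stretch before Cep290 (chr10:100487332-100487557, plus strand) ends at the base before the first GENCODE exon and holds 16 CpG sites at 58.8% GC. The stretch before Cep83 (chr10:94688577-94688653, plus strand) is the whole gap of 77 bases between the start of Cep83os, on the minus strand, and that of Cep83, and holds 11 CpG sites at 75.3% GC.
Cep290 upstream: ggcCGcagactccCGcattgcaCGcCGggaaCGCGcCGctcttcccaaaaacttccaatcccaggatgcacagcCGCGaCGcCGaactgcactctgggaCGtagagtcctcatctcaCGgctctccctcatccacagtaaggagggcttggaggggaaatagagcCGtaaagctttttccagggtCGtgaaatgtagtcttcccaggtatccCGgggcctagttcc
Cep83os to Cep83: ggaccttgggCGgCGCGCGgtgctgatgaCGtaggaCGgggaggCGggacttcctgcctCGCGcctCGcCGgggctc

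The starts of the coding sequence of Cep290, Cep83 and Cep170b are shown because the fold changes of the set followed base composition, as described further on. G and C are in capitals in the first 120 coding bases of the GENCODE M21 transcript with the longest coding sequence. In this stretch 35.0% of the bases were G or C in Cep290, 39.2% in Cep83 and 59.2% in Cep170b, a gene with nearly equal group means. The same stretch was 79.2% G or C in Cntln and 78.3% in Cep126, so a GC-poor coding start was not shared by the genes that rose; their whole coding sequences were 38.8% (Cep290), 42.0% (Cep83), 42.4% (Cep126) and 45.0% (Cntln) G or C, against 61.1% in Cep170b.
Cep290: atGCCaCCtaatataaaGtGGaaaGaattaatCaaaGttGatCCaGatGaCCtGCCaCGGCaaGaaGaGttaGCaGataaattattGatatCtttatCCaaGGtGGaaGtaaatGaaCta
Cep83: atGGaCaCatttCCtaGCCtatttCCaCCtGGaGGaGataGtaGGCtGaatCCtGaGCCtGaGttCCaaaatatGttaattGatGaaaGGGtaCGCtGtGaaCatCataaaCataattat
Cep170b: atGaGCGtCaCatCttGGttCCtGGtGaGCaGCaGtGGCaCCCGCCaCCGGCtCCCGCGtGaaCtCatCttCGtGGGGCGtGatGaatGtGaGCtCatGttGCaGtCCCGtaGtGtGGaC

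Libraries held 24591122 to 27013663 reads, and the values are reads per gene divided by a size factor per library, called normalised reads here. Markers of ciliated cells summed to 604884 to 618678 normalised reads in the 4 libraries, with 1 of 16 genes called higher (Ccdc39, log2 fold change 1.42, adjusted p = 0.0014 by limma) and a median log2 fold change of 0.078. Secretory cell markers were also abundant (280463 to 587329) and 9 of 10 were called lower, with a median of -1.87. Markers of alveolar type 2 cells, which are not airway cells, summed to 234185 to 411824 normalised reads, with 4 of 8 called lower. Basal cell markers summed to 913 to 5232, with none of 5 tested called and a median of -1.30. Markers of immune cells summed to 2229 to 4822, with S100a8 and Nkg7 at 0 in every library, and those of stroma and endothelium to 3811 to 8961; none of either list was called. In bulk samples, fewer cells of a type and less RNA per cell cannot be told apart, and the part of the shift in secretory and alveolar markers in the values below was not tested.

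**Figure D1:**
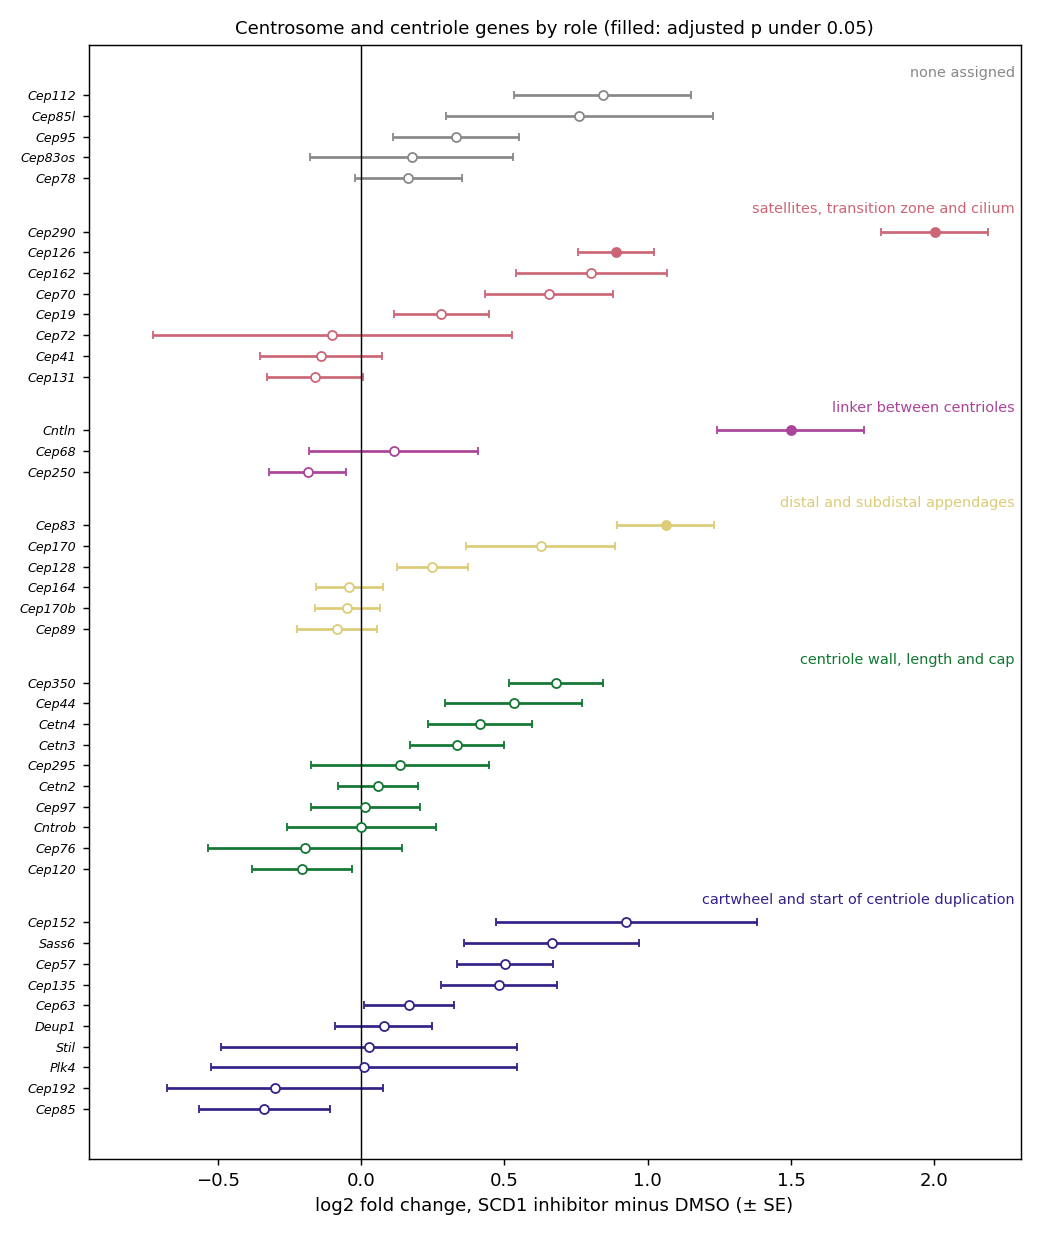
Log2 fold change (SCD1 inhibitor minus DMSO, x axis, with its standard error) of 42 of the 43 tested centrosome and centriole genes, grouped by role; filled points have an adjusted p under 0.05. Cep290 stands farthest to the right at 2.0, and no filled point lies left of 0.

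Among proteins of the transition zone, the satellites and the cilium, Cep290 and Cep126 rose. CEP290 links the microtubules of the transition zone to the membrane, and its loss causes ciliopathies. Cep290 (chr10:100487558-100574840, plus strand, 54 exons) was at 1037 and 748 normalised reads in the DMSO libraries and at 4069.6 and 3190.1 in the inhibitor libraries. The groups were far apart, with each inhibitor library more than 3 times the higher DMSO library, and the log2 fold change was 2.0 ± 0.19 (SE; adjusted p = 0.000365). Per kb of transcript its mean level went from 109 to 442 normalised reads.

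CEP126 is a protein of the centrosome and the base of the cilium. Cep126 (chr9:8076461-8134294, minus strand) was at 5697 and 4357 normalised reads with DMSO and at 9113 and 9382 with the inhibitor. The inhibitor libraries lay close together and above both DMSO libraries, which gave a log2 difference of 0.89 ± 0.13 (SE; adjusted p = 0.00537). Its mean level per kb, 1316 with DMSO and 2422 with the inhibitor, was far above that of Cep290 in both groups.

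The other genes of this role did not pass. Cep162, which marks the distal end of the centriole where the transition zone forms, was at 0.80 ± 0.26 on the log2 scale (adjusted p = 0.173), and Cep70 at 0.66 ± 0.22 (adjusted p = 0.190). With single libraries left out, the log2 fold change ran from 0.33 to 1.28 for Cep162 and from 0.44 to 0.88 for Cep70. Both were highest without DMSO replicate 1. Cep19 was at 0.28, and Cep41, Cep131 and Cep72 at -0.14, -0.16 and -0.10. Cep131 encodes a satellite protein, and its DMSO libraries were 3009.8 and 4500.3 against 3196 and 3384, so the groups overlapped.

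CNTLN, or centlein, is a linker protein that helps to hold the centriole pair together. Cntln (chr4:84884309-85131921, plus strand, 26 exons) was at 406 and 292 normalised reads with DMSO and at 1126 and 928 with the inhibitor. The groups did not overlap, and the log2 fold change was 1.50 ± 0.26 (SE; adjusted p = 0.0122). Its level per kb, 63.2 with DMSO and 186 with the inhibitor, was among the lower ones of the set. The other linker genes did not pass: Cep68 was at 0.11 ± 0.29 (adjusted p = 0.908) and Cep250, which encodes the linker's anchor C-NAP1, at -0.19 ± 0.13 (adjusted p = 0.589).

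CEP83 is the innermost distal appendage protein and is needed for the centriole to dock at the membrane. Cep83 (chr10:94688654-94790853, plus strand) was at 5135 and 3276 normalised reads with DMSO and at 8847 and 8349 with the inhibitor. The inhibitor libraries were close together and above both DMSO libraries, with a log2 difference of 1.06 ± 0.17 (SE; adjusted p = 0.00875). Its neighbour Cep83os (chr10:94671025-94688576, minus strand), the only noncoding gene matched by the naming rule, was at 202, 352, 303 and 308 in the same order. The groups of Cep83os overlapped, with a log2 difference of 0.18 ± 0.35 (adjusted p = 0.877); the difference between the neighbours was not tested.

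The other genes of the appendages did not pass. Cep170, of the subdistal appendages, was at 0.63 ± 0.26 (adjusted p = 0.295) and Cep128 at 0.25 ± 0.12 (adjusted p = 0.400). Cep164, the outer distal appendage protein that recruits the kinase TTBK2, was at 7874 and 6762 normalised reads with DMSO and at 6926 and 7261 with the inhibitor. The Cep164 groups overlapped and its log2 fold change was -0.041 ± 0.12 (adjusted p = 0.913). Cep89, also of the distal appendages, was at -0.084 (adjusted p = 0.852). Cep170b, a relative of Cep170, was the member with the most reads, with 10305 and 10403 against 9292 and 10807 and a log2 difference of -0.047 ± 0.11 (adjusted p = 0.899).

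**Figure D2:**
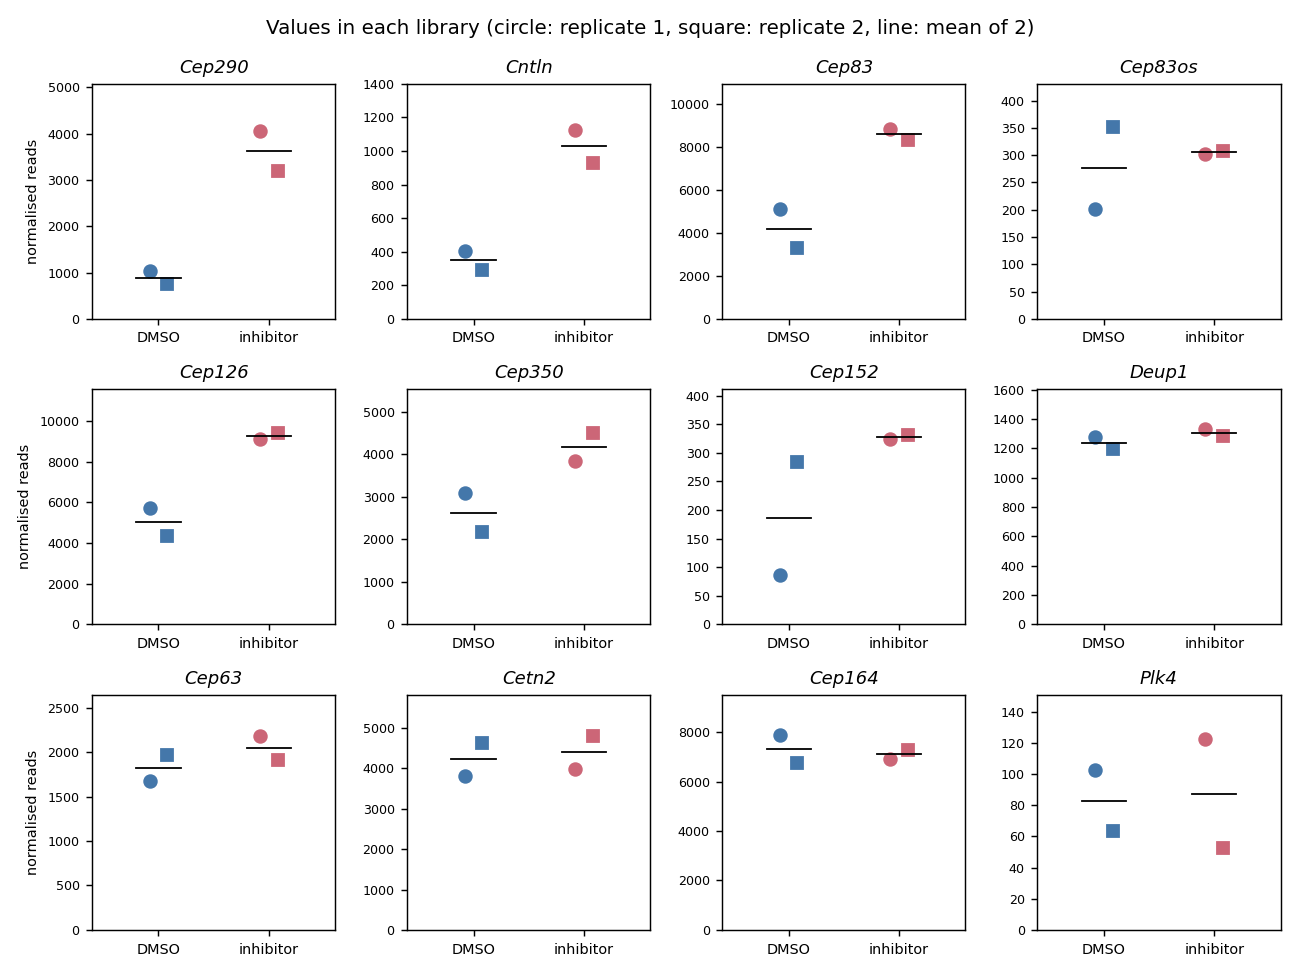
Normalised reads in each library (y axis, linear, from 0) for 12 genes of the set, with circles for replicate 1, squares for replicate 2 and lines for the mean of 2. In Cep290, Cntln, Cep83, Cep126 and Cep350 both inhibitor libraries lie above both DMSO libraries, whereas Cep63, Cetn2, Cep164 and Plk4 overlap.

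No gene of the cartwheel and the start of duplication passed the test: of 10 tested, 8 had a positive and 2 a negative log2 fold change, with a median of 0.12. Plk4, the kinase that starts duplication, was low, at 102 and 63.4 normalised reads with DMSO and 122 and 52.5 with the inhibitor. Its replicates differed more than its groups, and its log2 fold change of 0.0098 ± 0.53 (adjusted p = 0.996) leaves changes of either sign within 1 SE. Stil, the cartwheel partner of PLK4, was as low (94.5 and 70.4 against 58.3 and 117) and its log2 fold change was 0.029 ± 0.52 (adjusted p = 0.988). Sass6, the subunit of the cartwheel itself, was at 434 and 304 with DMSO and at 470.1 and 744 with the inhibitor. Its groups did not overlap, yet at a log2 difference of 0.67 ± 0.31 it did not pass (adjusted p = 0.349).

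CEP152 is the scaffold that brings PLK4 to the parent centriole. Cep152 was at 85.8 and 284 normalised reads with DMSO and at 325 and 330.4 with the inhibitor. DMSO replicate 1 lay far below the other libraries. The log2 fold change was 0.93 ± 0.45 (adjusted p = 0.392), and it was 0.19 without that library and 1.66 without DMSO replicate 2 (adjusted p = 0.0488). Cep192, the scaffold beside it, was at 421 and 213 against 231 and 249, or -0.30 ± 0.38 on the log2 scale (adjusted p = 0.785), and at 0.15 without DMSO replicate 1. Cep85, which binds STIL, had the lowest log2 fold change of the set, -0.34 ± 0.23 (adjusted p = 0.559), from 895 and 909.8 against 847 and 593.

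Cep63 and Deup1 are paralogs, the first acting on existing centrioles and the second on deuterosomes. Deup1 was at 1275 and 1199 normalised reads with DMSO and at 1330.1 and 1286 with the inhibitor. The groups of Deup1 just failed to overlap, but its log2 fold change was 0.079 ± 0.17 (adjusted p = 0.886). Cep63 was at 1678 and 1965 against 2183 and 1910.3, which overlapped, at 0.17 ± 0.16 (adjusted p = 0.694). Per kb, Cep63 stood at 717 and Deup1 at 493 normalised reads over the 4 libraries, against 24.5 for Plk4 and 16.1 for Stil. Cep135, the cartwheel's link to the microtubules, was at 0.48 ± 0.20 (adjusted p = 0.299), and Cep57, a partner of CEP63, at 0.50 ± 0.17 (adjusted p = 0.183). With single libraries left out, the log2 fold change ran from 0.17 to 0.79 for Cep135 and from 0.36 to 0.64 for Cep57. Both were highest without DMSO replicate 1.

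Among the 11 tested genes of the centriole wall, its length and its cap, none passed; 8 were positive and the median was 0.058. Cep350, which stabilises the centriole wall, came nearest. It was at 3087 and 2168 normalised reads with DMSO and at 3855 and 4499 with the inhibitor, without overlap, at 0.68 ± 0.16 (adjusted p = 0.0575). Cep350 passed with DESeq2 (adjusted p = 0.0102), where 1.92% of all genes with any read were called higher. That share counts genes to which DESeq2 gave no adjusted p. With single libraries left out, its log2 fold change ran from 0.43 to 0.93, highest without DMSO replicate 1. Cep44 was at 0.53 (adjusted p = 0.338), and Cep295 and Cep97 were at 0.14 and 0.016. Cep120, which promotes elongation, was at 3753 and 2579.7 against 2977 and 2437, at -0.21 ± 0.17 (adjusted p = 0.656) and 0.062 without DMSO replicate 1, and Cep76, which limits duplication, was at -0.20 ± 0.34 (adjusted p = 0.859).

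Centrins are small calcium-binding proteins inside the centriole. Cetn2 had the highest level per kb of the set, 3354 normalised reads, ahead of Cep126 (1869), Cep83 (1759) and Cep170b (1536). Cetn2 was at 3823 and 4630.1 with DMSO and at 3992 and 4808 with the inhibitor. In both groups replicate 2 was the higher library, and the log2 fold change of 0.058 ± 0.14 (adjusted p = 0.899) was smaller than the spread between replicates. Cetn3 was at 1449 and 1879 against 2158 and 2023, or 0.34 ± 0.16 on the log2 scale (adjusted p = 0.391). Cetn4 was at 1306 and 1325 against 2074 and 1496, with 0.41 ± 0.18 (adjusted p = 0.325). The groups of Cetn3 and Cetn4 did not overlap, and neither passed. Cetn1 was at 0 in every library. Cntrob, which encodes the daughter centriole protein centrobin, was at 502 and 724 against 662 and 551, or 0.0013 ± 0.26 on the log2 scale (adjusted p = 0.999).

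**Figure D3:**
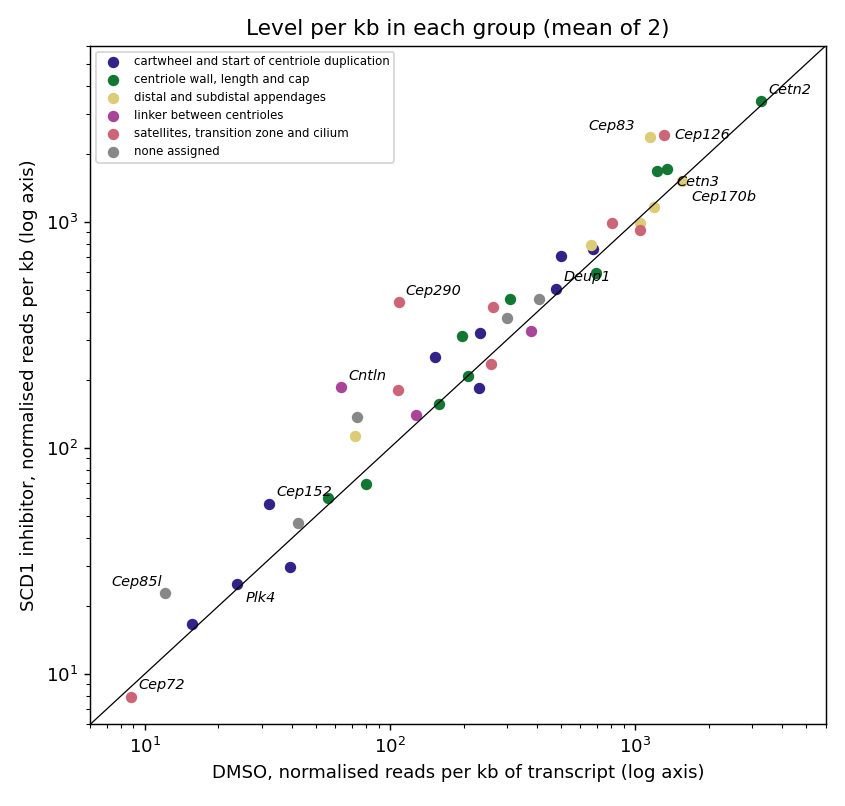
Mean normalised reads per kb of transcript with DMSO (x axis) and with the inhibitor (y axis), both on log scales, for 42 of the 43 tested genes coloured by role; the line marks equal levels. Levels run from 8.37 (Cep72) to 3354 (Cetn2) over the 4 libraries, and Cep290 and Cntln lie farthest above the line.

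Of the genes for which no role was assigned, Cep112, Cep85l, Cep95, Cep83os and Cep78 were tested and none passed, with log2 fold changes from 0.17 (Cep78) to 0.84 ± 0.31 (Cep112, adjusted p = 0.228). The genes under the floor were Cep55 (55.6, 4.96, 0 and 30.4 normalised reads), Cep57l1 (27.3, 0, 11.5 and 46.2), Cep295nl (21.4, 12.9, 0 and 26.2) and Cetn1. Cep55, which acts in the last step of cell division, had a mean of 22.7 and Cep57l1 of 21.2, just below the floor. Cep72, a satellite protein, had a mean of 30.5 (30.2, 33.7, 19.1 and 38.8) and was just above it.

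Among the tested genes of the set, 31 had a positive log2 fold change (72.1%, against 50.7% of all tested genes), and the median was 0.17, against 0.0056 over all tested genes. Both inhibitor libraries exceeded both DMSO libraries in 20 of them (46.5%, against a background of 22.7%). The reverse held in 3, Cep250, Cep76 and Cep85 (6.98%, against 22.2%). At an unadjusted p under 0.05, 14 were higher, where 8.16% of all tested genes were, and 0 were lower, where 5.92% were. Without the genes that rose, the median of the other 39 was 0.14, and 27 of them were positive and 12 negative. Genes in these counts are not independent, since all were measured in the same 4 libraries.

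The number of calls moved with single libraries. Without DMSO replicate 1, 9 genes of the set were called higher, the added ones being Cep135, Cep162, Cep350, Cep57 and Cep70, while the share over all tested genes was 4.46%, against 1.36% with all libraries. Leaving out DMSO replicate 2 gave 5 (Cep152 added), with 1.74% of all genes called higher. Leaving out inhibitor replicate 2 gave Cep290 alone (2.17, adjusted p = 0.00807), with 0.0217% of all. Without inhibitor replicate 1 none was called higher, in the set or over all genes (0.0%), and Cep290 had an adjusted p of 0.0596 by limma. In each of these fits the lone library of a group was assumed to vary like the other group. The log2 fold changes of the 4 genes stayed positive in every fit: over these left-out libraries they were 1.77 to 2.23 for Cep290, 1.28 to 1.72 for Cntln, 0.74 to 1.38 for Cep83 and 0.70 to 1.08 for Cep126. edgeR's test on the recovered reads called Cep290 alone (adjusted p = 0.0322), with a background of 0.0458% of 15299 genes higher. The other 3 had an edgeR adjusted p of 0.0769 to 0.107. DESeq2 called 5 of the set (Cep350 added) and 1.92% of the 17207 genes with any read higher. It gave no adjusted p to some of these genes, Plk4 and Stil among them, so the share over genes it could call is larger. Without limma's intensity trend none of the set or of all genes was called; at an unadjusted p under 0.05, 9 of the set were then higher (6.06% of all genes) and 0 lower (4.24%).

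Other genes of the centrosome, listed beside the set, numbered 61 tested. By limma 7 rose and none fell, where 1.36% of all tested genes were called higher and 0.427% lower. At an unadjusted p under 0.05, 18 were higher and 2 lower, where 8.16% and 5.92% of all tested genes were. The median log2 fold change of the 61 was 0.14. PCM1, the scaffold of centriolar satellites, and AKAP9, which anchors microtubules at the centrosome and the Golgi, led by p. Pcm1 was at 4024 and 2582 normalised reads with DMSO and at 7951 and 7862 with the inhibitor. Akap9 was at 8760.5 and 5616 with DMSO and at 17587 and 17224 with the inhibitor. In each gene the inhibitor libraries lay together, well above both DMSO libraries, and the log2 fold changes were 1.29 ± 0.17 for Pcm1 (adjusted p = 0.00281) and 1.31 ± 0.16 for Akap9 (adjusted p = 0.00197).

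The satellite gene Ccdc66 rose by 1.05 on the log2 scale (adjusted p = 0.0322), the subdistal appendage gene Cntrl by 0.90 (adjusted p = 0.0173), and Fam161a, of the inner centriole wall, by 0.51 (adjusted p = 0.0375). Ccp110 encodes the cap that is removed before a cilium grows, and it was at 4615 and 4612 against 6541 and 6550.1. The replicates of each group nearly coincided, and the log2 fold change was 0.50 (adjusted p = 0.0417). Sclt1, a distal appendage gene named here after its values were seen, was the last of the 7, at 1.33 (adjusted p = 0.0473). Pcnt, the pericentrin gene, was at 9867 and 8356 against 8769 and 8573 and did not pass (-0.066, adjusted p = 0.859). Nor did Cenpj, for centriole elongation (0.72, adjusted p = 0.358), or Ofd1, of satellites and distal centrioles (0.50, adjusted p = 0.452). The calls among the 61 did not hold with either inhibitor replicate left out, where nearly all calls higher were lost over all genes as well.

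By list, 1 of 18 pericentriolar material genes rose (median -0.055) and 2 of 10 satellite genes (median 0.44). Of the centriole core and appendage genes 4 of 19 rose (median 0.35), and none of 4 linker and rootlet genes did (median 0.17). Over all tested genes 1.36% were called higher. Genes that drive centriole amplification in multiciliated cells, such as Ccno (-0.47, adjusted p = 0.458) and Myb (0.14, adjusted p = 0.635), gave no call among 10, with 5 positive, 5 negative and a median of -0.046. Of 16 genes of dividing cells, 10 reached the floor and none was called, with 6 positive and 4 negative. Their log2 fold changes ran from -0.89 to 2.04, so the lack of a call does not show that they were unchanged. The summed level of the 16 was 862 to 1109 normalised reads with DMSO and 1075 to 1554 with the inhibitor.

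**Figure D4:**
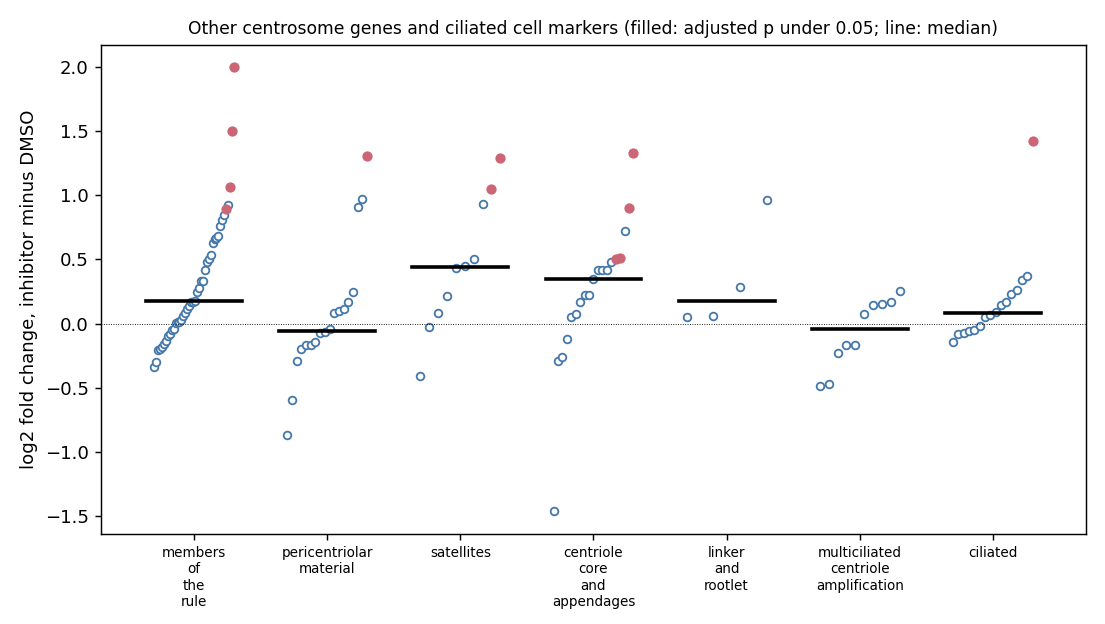
Log2 fold change (y axis, inhibitor minus DMSO) of each gene drawn, for 42 of the 43 tested genes of the naming rule, the lists of other centrosome genes and the ciliated cell markers; filled points have an adjusted p under 0.05 and lines are medians of the points drawn. Each list with a filled point also holds open points below 0, and the amplification and linker lists hold no filled point.

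Fold changes were higher in GC-poor transcripts, in the set and over all genes. Over the 43 tested genes, log2 fold change and GC content had a Pearson r of -0.49 and a Spearman rho of -0.50. Over 13709 tested genes with a gene model these were -0.34 and -0.37; the points are genes of the same 4 libraries, not replicates. The set was GC-poor, with a median of 45.6% against 50.8%, and the 4 genes that rose lay between 38.7% (Cep290) and 43.7% (Cntln). Of the set, 23 genes fell in the lowest of 4 equal bins of tested genes by GC content, up to 46.1%: 21 of these were positive, their median was 0.50, and 4 were called. All 3428 genes of that bin had a median of 0.22, and 4.40% were called higher. In the bin with the highest GC content the set had 4 genes, none positive, with a median of -0.10 against -0.13 for all.

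When the trend with transcript length and GC content was removed in each library, Cep290 (1.55, adjusted p = 0.000703), Cntln (1.29, adjusted p = 0.0326), Cep83 (0.88, adjusted p = 0.0206) and Cep126 (0.59, adjusted p = 0.0323) still passed by limma, where 0.598% of all genes were called higher. The median of the set went from 0.17 to 0.076, with 27 genes positive. In the same fit Cetn2, Cetn3, Plk4, Stil, Cep295, Cep83os and Cep97 turned negative, and Cep164, Cep170b and Cep89 positive. Of the other centrosome genes, Akap9, Pcm1, Cntrl and Fam161a still passed by limma in this fit. Ccdc66 (0.70, adjusted p = 0.198) and Ccp110 (0.33, adjusted p = 0.225) no longer did. Transcript length itself was nearly unrelated to fold change in the set (r = 0.11, rho = -0.0072), whereas the length of the gene on the chromosome was not (r = 0.40, against 0.12 over all genes).

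**Figure D5:**
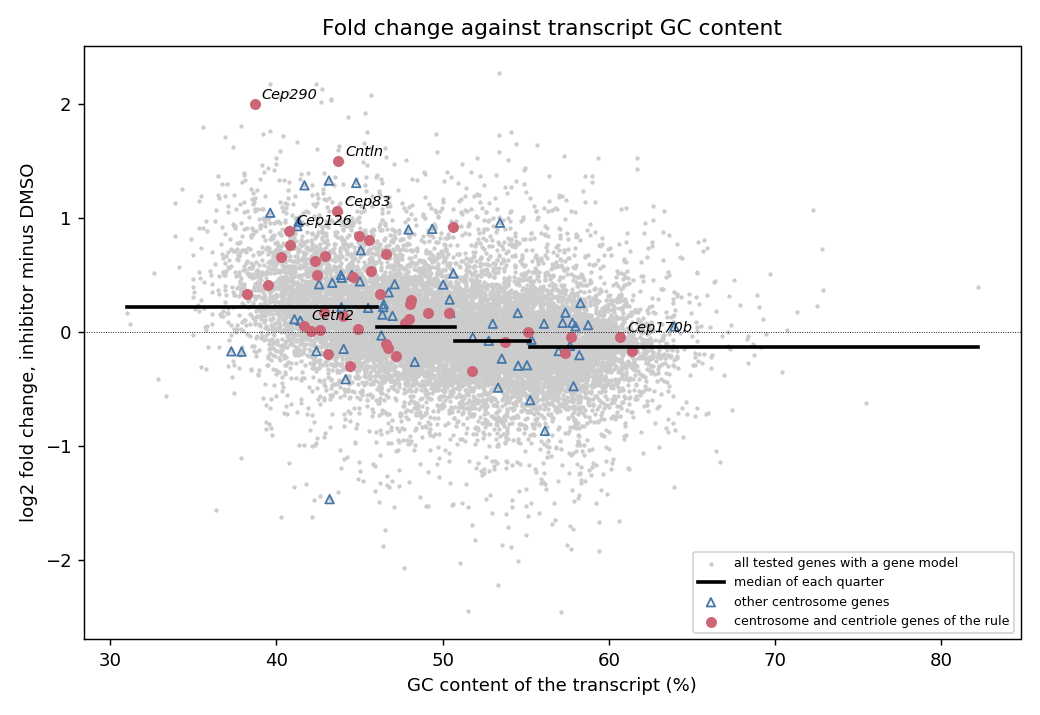
Log2 fold change (y axis) against GC content of the transcript in percent (x axis) for all tested genes with a gene model (grey), 42 of the 43 tested centrosome and centriole genes of the rule (red) and the other centrosome genes (blue triangles); black lines are the medians of all tested genes in 4 equal GC bins. These medians descend from 0.22 to -0.13, and Cep290, Cntln, Cep83 and Cep126 lie above the line of the first bin.

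DMSO replicate 2 was the lowest of the 4 libraries in 21 of the 43 genes (48.8%, against 29.2% of all tested genes), among them all 4 that rose. Where both inhibitor libraries exceed both DMSO libraries, as in those 4 genes, the lowest library is a DMSO one by definition. The share over all genes is therefore not a measure for them, and positive fold changes in the set raise its share in part. The log2 difference between the DMSO replicates (1 minus 2) had a median of 0.22 in the set and 0.014 over all genes. This difference also followed GC content, with a Pearson r of -0.34 in the set and -0.15 over all tested genes with a gene model. Between the inhibitor replicates r with GC content was -0.12 in the set and -0.034 over all. The DMSO difference also rose with transcript length, with a Pearson r for log2 length of 0.33 in the set and 0.14 over all. Of the nuclear long noncoding RNAs, all 7 tested were positive, with a median of 0.47, and Neat1 (0.76) and Kcnq1ot1 (1.10) were called higher (adjusted p = 0.0391 for both). Their summed level was 62080 and 44783 with DMSO and 77785 and 68177 with the inhibitor, lowest in DMSO replicate 2 as well. The part of base composition, transcript length, DMSO replicate 2 and nuclear RNA in the values of the centrosome genes was not tested beyond the fits given.

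Some readings could include reads of a neighbour, since the strand setting of the counting is not given in the sources used here. Of the set, 28 genes overlap another gene model and 8 overlap a tested gene. Cep290 shares 2576 bases with 4930430F08Rik on the opposite strand, which was at 351 and 166 normalised reads with DMSO and at 568 and 304 with the inhibitor. The DMSO and inhibitor values of this neighbour overlapped (0.72, adjusted p = 0.459), and its highest value was below the lowest of Cep290.

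The promoters were searched for the X-box, the motif of the RFX factors that act on cilium genes, as GTTGCCATG and as its GTTGCC end, which the longer motif contains. Both strands of the RefSeq windows from 250 bases before to 50 after the gene's start (GRCm38.p6) were read, which existed for 37 tested genes of the set. The longer motif stood in 2 of these (5.41%), Deup1 and Cep112, and in 0.844% of 10898 tested genes; the shorter in 10 (27.0%, against 15.5%). Neither stood in the windows of Cep290, Cep83, Cep126 or Cntln. The E2F-like runs TTTCCCGC and TTTGGCGC, linked to cell cycle genes, stood in 2 (Cep128 and Cntln) and 0 windows, against 2.20% and 1.04% of all, and the cell cycle element TTTGAA in 8 (21.6%, against 14.0%). A match is a run of letters and not a shown binding site. The sites are those of Deup1 (chr9:15627910-15627939, minus strand, 64 bases before the RefSeq start) and Cep112 (chr11:108425176-108425205, plus strand, 61 bases before). The GENCODE starts, chr9:15627933 for Deup1 and chr11:108425192 for Cep112, lie within these stretches. The Deup1 motif lies wholly downstream of its GENCODE start, and the GENCODE start of Cep112 falls inside the motif. The stretches are printed as they read on the strand of the gene, with the motif, which lies on the opposite strand, in capitals.
Deup1: ggccgcgtctcCATGGCAACccactgggaa
Cep112: cggagcgtcgcCATGGCAACagagttgaat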

How the data were processed

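The series held RNA sequencing of 4 samples, 2 per group, from total RNA of sorted cells; libraries were made from 5 ng of RNA with a directional kit, per the labels' protocols. The authors deposited 1 table of signal values, in which each gene's read count was divided by its library's size factor. HOMER, DESeq2 and the build mm10 appear in the submitters' processing notes, with no versions; which aligner and strand setting were used is not given in the sources used here. Every value was a whole multiple of a library's smallest step (100% within 0.01), and the inverse steps (1.03, 1.01, 1.05 and 0.953) equalled median-of-ratios size factors. In DMSO replicate 2 the step was within 1% of 1, so its unit rests on these multiples and its size factor. Reads recovered in this way entered only the edgeR and DESeq2 fits and the limma fit scaled by TMM factors.

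The members and lists were chosen with earlier results of these data known. Values were tested as log2(value + 25.8) in limma 3.58.1 (R 4.3.3), using an intensity trend, group as the only term and Benjamini-Hochberg adjustment over 13810 genes at a threshold of 0.05; fold changes are on that scale, which makes those of low genes smaller. Standard errors are limma's moderated ones. At the floor the counting error of 1 library is 19.7%, counting error only, since PCR copies are not independent molecules. Lengths, GC content and coordinates are those of the GENCODE M21 transcript with the longest coding sequence; 24497 symbols matched directly, 139 by an older symbol and 488 not at all. Promoter windows are from RefSeq (GRCm38.p6). Only the main limma fit was tried on simulated counts, drawn with an assumed spread between libraries and not one estimated from these libraries.

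Members described in full were those called, the duplication kinase and cartwheel genes, Deup1, Cep63, Cntrob, Cntln, the centrins, the 4 highest and 4 lowest fold changes, the 4 highest levels per kb and those within 20% of the floor. Other members appear so that they are accounted for; 1 tested member is in the counts and is not reported here by itself. Of the other centrosome genes, those called (at most 6 by p), Pcm1, Pcnt, Akap9, Cenpj and Ofd1 were to be named. Alternatives were other pseudocounts, floors and scalings, no trend, removal of the length and GC trend, edgeR 4.0.16, DESeq2 1.42.0, a replicate block and each library left out.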

Additional observations from a re-analysis of the deposited data

How the results depend on the processing

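Over all 16 alternatives the median log2 fold change of the centrosome genes stayed between 0.076 and 0.27, and no member was called lower. Equal totals, TMM factors, both pseudocounts and both other floors kept the same 4 calls. Counts of genes called higher moved to 0 members, 0 other centrosome genes and 0 of all genes (0 lower) without the intensity trend, where 9 members had an unadjusted p under 0.05 (6.06% of all genes higher). With edgeR they were 1, 0 and 7 (3 lower), with no floor 2 other centrosome genes and 51 of all (13 lower), with the length and GC trend removed 4 other centrosome genes and 82 of all, and with DESeq2 331 of all (146 lower), with 5 members. Leaving out single libraries gave 0 to 9 members, 0 to 11 other centrosome genes, and 0 to 616 of all higher and 5 to 179 lower. Replicate numbers are shared between the groups, and the labels do not say whether same-numbered samples are paired. Over the tested genes, the difference between the DMSO replicates correlated at 0.073 with that between the inhibitor replicates. With 2 replicate numbers this value cannot decide whether the samples are paired. A replicate block called 6 members (Cep162 and Cep350 added), 10 other centrosome genes and 469 of all higher (3.40%), 205 lower. Signs changed in some genes that were not called. The log2 fold change became -0.0017 for Plk4 with 0.25 times the pseudocount, and for Cntrob -0.00050 with 4 times it, -0.028 with edgeR and -0.016 with DESeq2. With the length and GC trend removed it became 0.058 (Cep170b), -0.24 (Cetn2), -0.11 (Cetn3), -0.23 (Plk4) and -0.13 (Stil). Over the fits that leave out 1 library each it ran from -0.47 to 0.062 for Cep120, -0.16 to 0.062 for Cep170b, -0.75 to 0.15 for Cep192, -0.36 to 0.16 for Cep72, -0.079 to 0.20 for Cetn2, -0.25 to 0.25 for Cntrob, -0.45 to 0.47 for Plk4, -0.36 to 0.41 for Stil and -0.19 to 0.053 for Pcnt. The positive extreme came without DMSO replicate 1 for Cep120, Cep192 and Pcnt, without inhibitor replicate 1 for Cep170b, Cep72 and Stil, without DMSO replicate 2 for Cetn2 and Cntrob, and without inhibitor replicate 2 for Plk4. The cause of these changes was not tested. A tally was made for the members described in full and the other centrosome genes that were to be named. Of their values under alternatives, 394 kept direction and call, 22 changed direction, 44 lost a call and 1 gained it. The 394 include the DESeq2 values of Plk4, Stil, Cep152, Cep192, Cep72, Cep76, Cenpj and Ofd1. DESeq2 gave these genes no adjusted p, so only their direction could be compared. The tally leaves out the other members. Among those, Cep350, Cep162, Cep135, Cep57 and Cep70 were not called in the main fit but were called in some alternatives. Counting error limits Plk4, Stil, Cep72 and the genes under the floor.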
